A study of Mus musculus with 16 samples.

Results

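The miR-106a-363 cluster is an X-linked group of miRNA hairpins and a paralogue of the miR-17-92 and miR-106b-25 clusters. Its members were taken by name from a table of mature miRNA counts: mmu-miR-106a-5p, mmu-miR-18b-5p, mmu-miR-20b-5p, mmu-miR-363-3p and mmu-miR-363-5p, 5 of the 1377 names in the table. Marrow of male wild-type C57BL/6 mice was cultured to dendritic cells; the mice were 8 weeks old, or 7 weeks old for mouse 4, with the red cells lysed at the start of culture. Cultures of each of 4 mice were given 25 µM quercetin (a plant flavonol, as the aglycone) on days 5 and 7 and then LPS (lipopolysaccharide, a bacterial cell wall component sensed by TLR4) at 1 µg/mL for 6 hours on day 8, or quercetin alone, or LPS alone, or neither. These are called quercetin plus LPS, quercetin, LPS and control, with 4 libraries each, and a replicate number is the mouse number of the labels.

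A miRNA hairpin is cut by Drosha and Dicer into a short duplex, of which the strand loaded on an Argonaute protein (the guide arm) finds target mRNAs, mainly by pairing through its seed, bases 2 to 8. miR-17-92 and its paralogues are best known for promoting proliferation and survival, with the cell cycle inhibitor Cdkn1a and the pro-apoptotic Bcl2l11 among the targets of the miR-17 seed family. In human monocyte precursors, miR-17-5p, miR-20a and miR-106a have been described as repressors of RUNX1 (AML1), a transcription factor that promotes the M-CSF receptor.

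In RefSeq on GRCm38.p6 the cluster covers X:52741693-52742567, 875 bases on the minus strand, and holds 6 hairpins in the order Mir106a, Mir18b, Mir20b, Mir19b-2, Mir92-2 and Mir363. In GENCODE M21, which uses the same coordinates, each hairpin is an exon of its own miRNA gene. The non-coding transcript Kis2, at X:52742563-52744960 on the same strand, overlaps the span by 5 bases, at the Mir106a end. The authors' own build was mm9, and their table gives no coordinates. The mature arms of 4 members were found in the RefSeq miRNA table. They are shown beside their closest relatives because the results turn on which of these near copies changed. Capitals mark the seed, 5′ to 3′.
miR-106a-5p: cAAAGUGCuaacagugcagguag
miR-17-5p: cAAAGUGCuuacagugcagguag
miR-20b-5p: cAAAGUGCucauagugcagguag
miR-20a-5p: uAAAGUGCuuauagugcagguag
miR-18b-5p: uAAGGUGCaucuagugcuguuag
miR-18a-5p: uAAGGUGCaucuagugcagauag
miR-363-3p: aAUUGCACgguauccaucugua
miR-92a-3p: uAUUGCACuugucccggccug

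Counted from 1 at the 5′ end, with the base of the relative first and that of the member last, miR-106a-5p differs from miR-17-5p by U10A alone. miR-20b-5p differs from miR-20a-5p by U1C and U10C, and miR-18b-5p from miR-18a-5p by A18U and A20U. miR-363-3p shares the seed of miR-92a-3p and differs from it at 11 positions in an alignment without gaps. The rule by which reads were assigned to such near copies is not given in the sources used here, so the split of reads within each pair is uncertain. The cluster's own miR-19b and miR-92a guide arms cannot be told apart from those of miR-17-92: miR-19b-3p and miR-92a-3p each have a locus on chromosome 14 and another on chromosome X. They were counted apart from the members.

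All 5 members were low in these cells. Levels are CPM, that is counts scaled to library size with TMM (trimmed mean of M values), and over all 16 libraries, miR-363-3p averaged 21.7 CPM and ranked 260th of the 1372 names used. It was followed by miR-20b-5p at 4.35 CPM (371st), miR-106a-5p at 3.73 CPM (389th), miR-18b-5p at 2.05 CPM (457th) and miR-363-5p at 0.843 CPM (558th). miR-363-3p held 66.1% of the members' counts. No member was at 0 in any library, but the numbers behind the levels are small: 14 to 72 counts a library for miR-106a-5p, 13 to 88 for miR-20b-5p, 10 to 43 for miR-18b-5p, 80 to 369 for miR-363-3p and 1 to 28 for miR-363-5p. A count of 0 would allow up to 3 counts, which is 0.215 to 0.464 CPM in these libraries, counting error only. Of the remaining arms in the table, miR-106a-3p had 0 to 2 counts a library and miR-20b-3p 0 to 5, near that limit. miR-18b-3p had 0 to 13 counts and reached 1.26 CPM, above the limit. None of these arms passed the filter on low counts.

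Depth was 6459654 to 9041030 counts in quercetin plus LPS, 7698774 to 8572734 in quercetin, 10105690 to 13949915 in LPS and 8668513 to 12535228 in control libraries. In a principal component analysis of log2 CPM, 1 library of each group lay above its group on the second component: quercetin plus LPS 4 at 15.002, quercetin 4 at -2.64, LPS 4 at 14.2 and control 3 at 12.2. All but control 3 are labelled mouse 4, the mouse of 7 weeks. Control 3 correlated at a mean r of 0.57 with the other treatments' libraries of mouse 4, in deviations from group means. The part of mouse or age was not tested. Quercetin plus LPS 1, at 6.99, also lay above quercetin plus LPS 2 and 3, at -8.77 and -11.4. The quercetin results are also given without the 4 libraries named first. Erythroid markers rose in both quercetin comparisons, and stromal markers passed only in the one with LPS. The names miR-486a-5p and miR-486b-5p have the same counts in all 16 libraries, as have miR-199a-3p and miR-199b-3p, and each pair is counted once here. Of all 568 tested miRNAs, 6.87% rose with quercetin against control and 8.63% with quercetin plus LPS against LPS. Of 5 distinct erythroid miRNAs (miR-451a, miR-144 and miR-486 arms), 4 rose in each of these comparisons. Their summed level was 2585 to 6650 CPM in quercetin and 398 to 894 CPM in control libraries, and 1268 to 3042 CPM in quercetin plus LPS and 443 to 1409 CPM in LPS libraries. Of 8 distinct stromal and endothelial miRNAs, 4 rose in quercetin plus LPS against LPS (summed level 145 to 4545 CPM against 60.7 to 117 CPM) and 0 passed in quercetin against control (122 to 1278 CPM against 76.6 to 485 CPM), where 0 had an unadjusted p under 0.05 and DESeq2 and limma-voom called 0. The highest stromal sum lay in quercetin plus LPS 2, where miR-143-3p had 4317 CPM, against 65.3, 202 and 471 CPM in quercetin plus LPS 1, 3 and 4. In LPS against control, 8 of all 9 stromal and endothelial names had a negative log2 fold change, here with miR-199a-3p and miR-199b-3p counted separately. Counted in this way, 4 had an unadjusted p under 0.05 in edgeR, which called 0. Of the 568 miRNAs, 4.58% had such a p there and edgeR called 0.528%. No erythroid or stromal marker was at 0 in all libraries of a group. Of 5 miRNAs of tissues foreign to bone marrow, miR-208a-3p was at 0 in all quercetin plus LPS and all quercetin libraries and miR-1a-3p in all quercetin libraries, and 1 of the 2 that could be tested, miR-133a-3p, rose in quercetin plus LPS against LPS. Their summed level was 9.76 to 25.4 CPM in quercetin plus LPS, 7.85 to 22.0 CPM in quercetin, 6.50 to 8.34 CPM in LPS and 4.41 to 16.5 CPM in control libraries. The other tested name, miR-122-5p, had a log2 fold change of 1.18 ± 0.49 (SE) in quercetin against control (edgeR adjusted p = 0.122). In quercetin plus LPS against LPS it stood at 1.33 ± 0.49 (edgeR adjusted p = 0.0588), and DESeq2 called both tested names higher there. Blood cell and myeloid miRNAs (miR-142a, miR-223-3p, miR-21a-5p, miR-155-5p, miR-146a-5p) summed to 172744 to 320020 CPM over all 16 libraries, and 2 lymphocyte arms of miR-150 to 374 to 1023 CPM, with 0 of either list called by edgeR, DESeq2 or limma-voom in any comparison, and 1 of the myeloid list, in quercetin plus LPS against quercetin, at an unadjusted p under 0.05. The part of the other cells in the members' results was not tested. In bulk RNA, fewer cells of a type and less of a miRNA per cell cannot be told apart.

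Quercetin against control asks how the miRNAs of resting dendritic cells differ after the flavonol. miR-106a-5p and miR-20b-5p, the members with the miR-17 seed, were lower after quercetin, at 0.439 and 0.384 of their control levels. miR-18b-5p, miR-363-3p and miR-363-5p did not pass. So 2 of 5 members fell and 0 rose, where 8.98% of the 568 tested miRNAs fell and 6.87% rose (edgeR quasi-likelihood test, Benjamini-Hochberg adjusted p under 0.05 over all 568). DESeq2 and limma-voom also called 2 lower and 0 higher. The median log2 fold change was -0.05 over all 568; that over the 5 members, -0.98, is the value of miR-363-5p, which did not pass.

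miR-106a-5p had 1.85, 2.09, 2.72 and 2.04 CPM in the quercetin libraries of mice 1 to 4, against 4.87, 5.65, 4.27 and 5.11 CPM in their control libraries. Every quercetin library lay below every control library, and the level was lower with quercetin in 4 of 4 mice. The mean was 2.18 ± 0.381 CPM in quercetin and 4.97 ± 0.570 CPM in control libraries (SD, n = 4 each). The log2 fold change was -1.19 ± 0.24 (SE), a 2.28-fold lower level, with an adjusted p of 0.00287 in edgeR. Without the 4 libraries that stood apart it was -1.23, with an adjusted p of 0.0225.

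miR-20b-5p had 1.60, 2.51, 2.95 and 2.52 CPM with quercetin, against 6.81, 5.85, 8.04 and 4.42 CPM in the control libraries. Again no quercetin library reached the lowest control library, and all 4 mice had the lower level with quercetin. The mean was 2.40 ± 0.569 CPM in quercetin and 6.28 ± 1.53 CPM in control libraries (SD, n = 4 each), with a log2 fold change of -1.38 ± 0.27, 2.60-fold lower (edgeR adjusted p = 0.00259). Without the 4 libraries the log2 fold change was -1.27 and the adjusted p 0.0286. Of the 568 miRNAs, 11.1% were lower with quercetin with no overlap between the groups.

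miR-18b-5p, which carries the miR-18 seed, had 1.23, 1.15, 1.25 and 2.40 CPM with quercetin, against 3.33, 1.64, 3.64 and 2.25 CPM in the control libraries. The groups overlapped: quercetin 4 lay above controls 2 and 4. The log2 fold change was -0.84 ± 0.35 (95% interval -1.52 to -0.17), with an unadjusted p of 0.0267 and an adjusted p of 0.120 in edgeR, where 27.3% of the 568 miRNAs had an unadjusted p under 0.05. Without the 4 libraries it was -0.996, with an adjusted p of 0.130.

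The arms of the last hairpin varied more between mice. miR-363-3p, the guide arm, had 21.0, 12.98, 17.02 and 17.6 CPM with quercetin, against 28.4, 36.6, 20.2 and 16.9 CPM in the control libraries. It was lower with quercetin in 3 of 4 mice, with overlapping groups and a log2 fold change of -0.57 ± 0.35 (95% interval -1.25 to 0.11, edgeR adjusted p = 0.300). Its passenger arm miR-363-5p had 0.246, 0.733, 0.454 and 0.480 CPM with quercetin, against 0.387, 1.54, 1.26 and 0.779 CPM in the control libraries. It was lower in 4 of 4 mice, but control 1 lay within the quercetin range. The log2 fold change was -0.98 ± 0.57 (95% interval -2.10 to 0.13), with an adjusted p of 0.279 in edgeR. These intervals hold both no difference and a fall as large as that of miR-106a-5p. Without the 4 libraries the log2 fold changes were -0.68 for miR-363-3p and -0.84 for miR-363-5p, with adjusted p-values of 0.360 and 0.496.

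**Figure D1:**
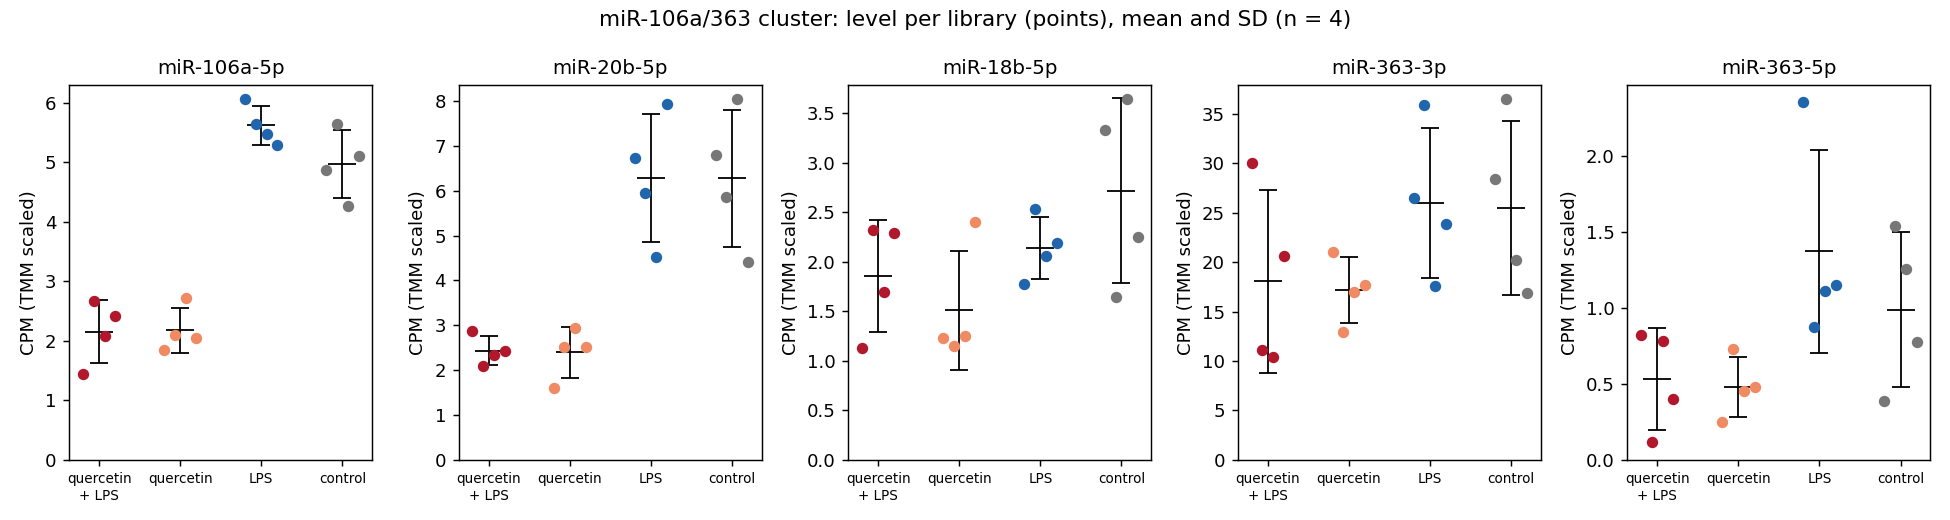
Level of each member (y axis, CPM with TMM scaling, starting at 0) in quercetin plus LPS, quercetin, LPS and control libraries, with 1 point per library, mice 1 to 4 from left to right, and the mean and SD of n = 4. For miR-106a-5p and miR-20b-5p all points of both quercetin groups, at most 2.95 CPM, lie below all points of the LPS and control groups, at least 4.27 CPM.

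The same question for stimulated cells is put by quercetin plus LPS against LPS, which shares mice but no library with the comparison above. The same 2 of 5 members fell and 0 rose, where 14.3% of the 568 miRNAs fell and 8.63% rose, and DESeq2 and limma-voom gave the same counts of members. miR-106a-5p had 1.44, 2.67, 2.08 and 2.42 CPM in quercetin plus LPS, against 6.07, 5.65, 5.47 and 5.29 CPM in LPS libraries. The groups lay well apart, with means of 2.15 ± 0.533 CPM in quercetin plus LPS and 5.62 ± 0.334 CPM in LPS libraries (SD, n = 4 each). The log2 fold change was -1.38 ± 0.24, a 2.61-fold lower level (edgeR adjusted p = 7.3e-04), and -1.47 with an adjusted p of 0.00748 without the 4 libraries.

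miR-20b-5p had 2.88, 2.09, 2.34 and 2.42 CPM in quercetin plus LPS, against 6.74, 5.94, 4.52 and 7.93 CPM in LPS libraries. The groups did not overlap and all 4 mice had the lower level with quercetin. The log2 fold change was -1.36 ± 0.27, 2.56-fold lower, with an adjusted p of 0.00253 in edgeR, and -1.22 with an adjusted p of 0.0247 without the 4 libraries. Here 13.4% of the 568 miRNAs were lower with no overlap. The median of all 568 was itself -0.13 in this comparison. Relative to that median miR-106a-5p stood at -1.26 and miR-20b-5p at -1.23, and in quercetin against control they stood at -1.14 and -1.33.

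miR-363-5p also had groups that did not overlap in stimulated cells, at 0.824, 0.116, 0.781 and 0.404 CPM in quercetin plus LPS, against 2.36, 0.877, 1.11 and 1.15 CPM in LPS libraries. All 4 mice had the lower level with quercetin, but at 1 to 8 counts a library in quercetin plus LPS and 9 to 28 in LPS the test did not pass over all miRNAs (log2 fold change -1.35 ± 0.55, unadjusted p = 0.0256, edgeR adjusted p = 0.0817). An unadjusted p under 0.05 was seen for 37.5% of the 568 miRNAs here. It exceeded 1 CPM in only 5 of 16 libraries, all of them LPS or control, so it reached the test through the groups in which it was higher. Its log2 fold change without the 4 libraries was -1.32, with an adjusted p of 0.211.

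miR-18b-5p had 1.13, 2.32, 1.69 and 2.29 CPM in quercetin plus LPS, against 1.77, 2.53, 2.06 and 2.18 CPM in LPS libraries. The ranges overlapped, with quercetin plus LPS 1 and 3 below every LPS library, and the log2 fold change was -0.20 ± 0.34 (95% interval -0.88 to 0.47, edgeR adjusted p = 0.738). miR-363-3p had 30.1, 11.1, 10.4 and 20.6 CPM in quercetin plus LPS, against 26.5, 35.9, 17.6 and 23.9 CPM in LPS libraries. Mouse 1 went against the other mice, with the higher level in quercetin plus LPS, and the log2 fold change was -0.52 ± 0.35 (95% interval -1.20 to 0.15, adjusted p = 0.299 in edgeR). With 1 library left out it lay between -0.85 and -0.12, and upper quartile scaling gave -0.18. Without the 4 libraries the values were -0.30 for miR-18b-5p and -0.62 for miR-363-3p, with adjusted p-values of 0.653 and 0.363.

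LPS against control asks what 6 hours of TLR4 stimulation did on its own. No member passed: edgeR, DESeq2 and limma-voom each called 0 of 5, and 0 had an unadjusted p under 0.05, where edgeR called 0.528% of the 568 miRNAs in either direction and 4.58% had such a p. DESeq2 gave no adjusted p for miR-363-5p in this comparison (unadjusted p = 0.396 in DESeq2). miR-106a-5p was higher in 4 of 4 mice by a log2 fold change of 0.17 ± 0.23 (95% interval -0.27 to 0.62). miR-20b-5p averaged 6.28 CPM in both groups, with a log2 fold change of 0.0012 ± 0.26. The values were -0.34 ± 0.34 for miR-18b-5p, 0.03 ± 0.34 for miR-363-3p and 0.51 ± 0.51 for miR-363-5p, each with an adjusted p of 1.00 in edgeR.

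In quercetin plus LPS against quercetin, edgeR, DESeq2 and limma-voom again called 0 of 5 members, with 0 at an unadjusted p under 0.05, beside 0.352% of the 568 miRNAs called by edgeR and 7.22% with such a p. miR-106a-5p stood at -0.02 ± 0.25 and miR-20b-5p at 0.02 ± 0.28 on the log2 scale, both with an adjusted p of 0.991. miR-18b-5p stood at 0.30 ± 0.36, miR-363-3p at 0.07 ± 0.35 and miR-363-5p at 0.14 ± 0.61. The interaction, which asks whether the difference with quercetin differed with and without LPS, was -0.19 ± 0.34 for miR-106a-5p (adjusted p = 0.923) and 0.02 ± 0.38 for miR-20b-5p (adjusted p = 0.988). For miR-18b-5p it was 0.64 ± 0.49 (95% interval -0.32 to 1.60, adjusted p = 0.893), so its larger difference in resting cells was not shown to differ from that in stimulated cells. The interaction was called for 0 of the 568 miRNAs by edgeR, DESeq2 and limma-voom, while 26 (4.58%) had an unadjusted p under 0.05 in edgeR, none of them a member.

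**Figure D2:**
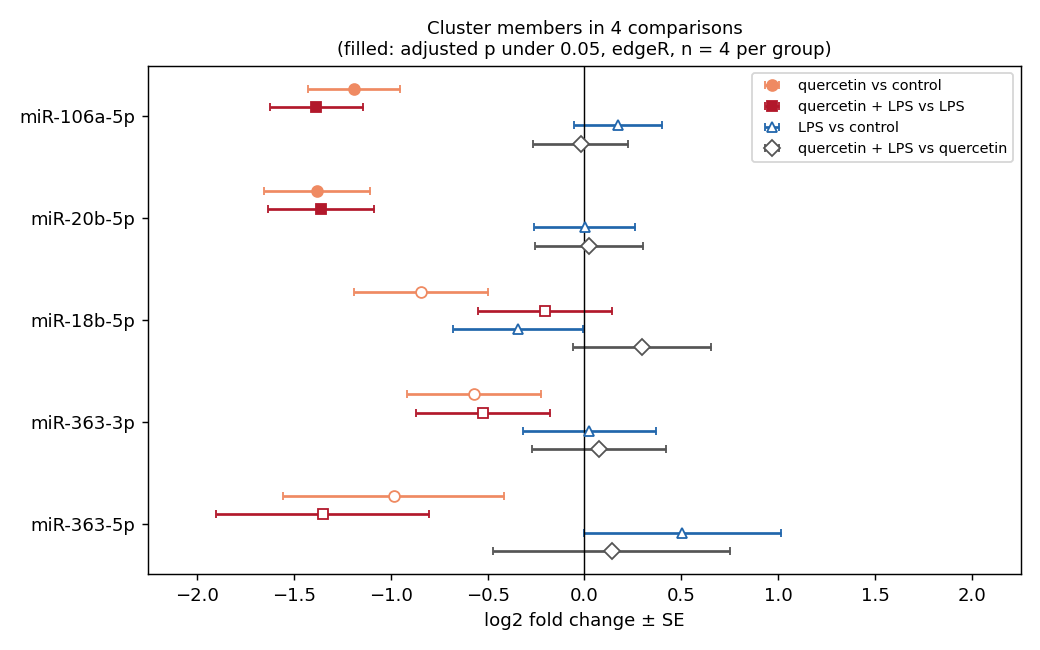
Log2 fold change (x axis) with its SE for each member in 4 comparisons, from edgeR with n = 4 per group. Filled symbols have an adjusted p under 0.05: these are miR-106a-5p and miR-20b-5p in the 2 quercetin comparisons, between -1.38 and -1.19, while all values for LPS lie between -0.34 and 0.51.

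By level, the groups of miR-106a-5p ran from quercetin plus LPS (2.15 CPM) and quercetin (2.18 CPM) to control (4.97 CPM) and LPS (5.62 CPM), and only the step from quercetin to control was free of overlap. miR-20b-5p gave 2.40 CPM in quercetin, 2.43 CPM in quercetin plus LPS and 6.28 CPM in both control and LPS libraries, where the single gap lay between quercetin plus LPS and control. miR-18b-5p ran from quercetin (1.51 CPM) and quercetin plus LPS (1.86 CPM) to LPS (2.14 CPM) and control (2.72 CPM). miR-363-3p ran from quercetin (17.2 CPM) and quercetin plus LPS (18.1 CPM) to control (25.5 CPM) and LPS (26.0 CPM), and each neighbouring pair of groups of these members overlapped. miR-363-5p had 0.478 CPM in quercetin, 0.531 CPM in quercetin plus LPS, 0.991 CPM in control and 1.37 CPM in LPS libraries, again with overlap at each step. Summed over the 5 members, the level was 17.3 to 36.3 CPM in quercetin plus LPS, 19.5 to 26.0 CPM in quercetin, 30.8 to 50.9 CPM in LPS and 29.4 to 51.2 CPM in control libraries.

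The other miRNAs with the same seeds were set beside the members; 1 of them, miR-92a-3p, has a locus within the cluster as well as one outside it. Of 9 other tested miRNAs with the seed of a member, edgeR, DESeq2 and limma-voom called 0 in either quercetin comparison, and 0 had an unadjusted p under 0.05. Their log2 fold changes lay between -0.51 and 0.53 in quercetin against control, and between -0.55 and 0.16 in quercetin plus LPS against LPS. miR-17-5p, the closest relative of miR-106a-5p, stood at -0.26 ± 0.19 and -0.27 ± 0.19 in these comparisons, and miR-20a-5p, that of miR-20b-5p, at -0.21 ± 0.24 and -0.03 ± 0.24. miR-18a-5p stood at -0.51 ± 0.27 and -0.13 ± 0.26. miR-92a-3p stood at 0.10 ± 0.25 and -0.38 ± 0.25.

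**Figure D3:**
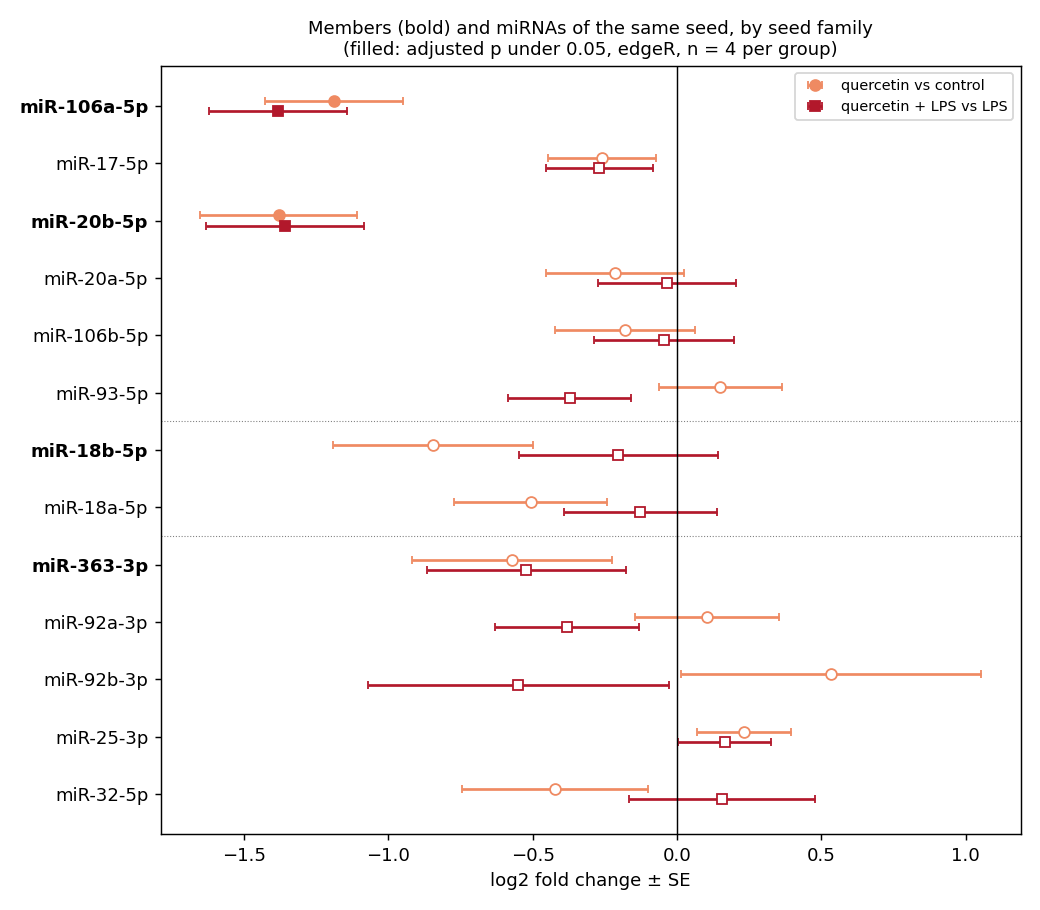
Log2 fold change (x axis) with its SE for the members (bold) and the other tested miRNAs with the same seed, in quercetin against control (circles) and quercetin plus LPS against LPS (squares), from edgeR with n = 4 per group; dotted lines separate the 3 seed families. Filled symbols, with an adjusted p under 0.05, are those of miR-106a-5p and miR-20b-5p, and the 9 relatives lie between -0.55 and 0.53.

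In edgeR, 8.98% and 14.3% of the 568 miRNAs fell in the quercetin comparisons, without and with LPS. By cluster, 1 of 11 tested arms of miR-17-92 fell and 0 rose in each quercetin comparison in edgeR. In quercetin against control it was miR-92a-1-5p, a passenger arm, at 115, 69.9, 109 and 77.3 CPM with quercetin, against 183, 202, 144 and 132 CPM in control libraries (log2 fold change -0.83 ± 0.25, adjusted p = 0.0325). In quercetin plus LPS against LPS it was miR-18a-3p, at 48.3, 42.9, 54.8 and 30.9 CPM in quercetin plus LPS, against 75.5, 79.2, 64.1 and 61.1 CPM in LPS libraries (-0.66 ± 0.21, adjusted p = 0.0361). Neither arm had overlapping groups in its comparison, where 11.1% and 13.4% of the 568 miRNAs were lower with no overlap. The counts of arms depended on the tool. In quercetin plus LPS against LPS, 1 arm rose and 0 fell by DESeq2, while 1 rose and 2 fell by limma-voom. An unadjusted p under 0.05 was seen for 2 and 5 of the 11 arms, where 27.3% and 37.5% of the 568 miRNAs had one. Among these arms, miR-20a-3p, a passenger arm named after its values were seen, stood at -1.04 ± 0.43 in quercetin against control (adjusted p = 0.124) and -1.10 ± 0.43 in quercetin plus LPS against LPS (adjusted p = 0.0733, edgeR). It was lower with quercetin in 4 of 4 mice in both, at 1.67 to 2.09 CPM in quercetin and 2.60 to 4.49 CPM in control libraries, and 0.813 to 3.50 CPM in quercetin plus LPS and 2.06 to 7.79 CPM in LPS libraries, where the groups overlapped. Of the 11 arms, 8 and 9 had a negative log2 fold change. Against these, miR-19a-3p had 115, 275, 145 and 157 CPM in quercetin plus LPS libraries. It had 39.1, 31.2, 128 and 49.8 CPM in LPS libraries, again with overlap. Without LPS, miR-19a-3p had 111, 95.3, 62.1 and 158 CPM in quercetin libraries, against 167, 29.2, 46.6 and 80.3 CPM in control libraries. These groups also overlapped, and mouse 1 had the lower level with quercetin. Of the 6 arms of miR-106b-25, edgeR called 0 in either comparison, with 0 and 1 at an unadjusted p under 0.05, DESeq2 called 0 and limma-voom 0 and 1. The medians were -0.22 and -0.27 over the arms of miR-17-92 and -0.01 and -0.21 over those of miR-106b-25. Those over the 5 members, -0.98 and -1.35, are both the values of miR-363-5p, which did not pass, and are not read against them. Of the arms that this cluster shares with miR-17-92, miR-19b-3p stood at 0.45 ± 0.42 and 0.88 ± 0.43 and did not pass in either comparison (adjusted p = 0.538 and 0.144).

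A ratio of counts within a library does not depend on how libraries are scaled. miR-106a-5p had 0.455%, 0.535%, 0.630% and 0.514% of the count of miR-17-5p with quercetin, against 0.800%, 1.22%, 0.915% and 1.25% in control libraries. With LPS added the shares were 0.322%, 0.828%, 0.580% and 0.550% in quercetin plus LPS, against 1.28%, 1.37%, 1.20% and 0.965% in LPS libraries. The ratio was thus lower with quercetin in 4 of 4 mice with and without LPS, and the groups compared did not overlap in either comparison. As stated above, the split of reads between such near copies is uncertain. The log2 ratio differed by -0.93 in quercetin against control and by -1.11 in quercetin plus LPS against LPS.

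miR-20b-5p had 0.766%, 0.900%, 1.26% and 0.952% of the count of miR-20a-5p with quercetin, against 2.21%, 2.95%, 2.27% and 1.55% in control libraries. In quercetin plus LPS it had 1.23%, 0.755%, 0.967% and 0.667%, against 2.65%, 2.86%, 1.57% and 2.02% in LPS libraries. These groups did not overlap either, and the log2 ratio differed by -1.17 without and -1.30 with LPS. Each of these 4 differences had an exact two-sided permutation p of 0.0286, the smallest that 4 against 4 libraries can give. After Benjamini-Hochberg adjustment over the 20 ratios and comparisons tested it was 0.143, so none passed the correction, which ratios at that smallest p could pass only if 12 or more of the 20 reached it. Permuting within mice allows no p below 0.125. The other 16 had overlapping groups. Among them, miR-18b-5p had 1.95% to 3.08% of the count of miR-18a-5p in quercetin and 2.13% to 5.61% in control libraries, and 1.84% to 3.14% in quercetin plus LPS and 2.30% to 3.25% in LPS libraries. miR-363-3p had 0.0364% to 0.186% of the count of miR-92a-3p over all 16 libraries.

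**Figure D4:**
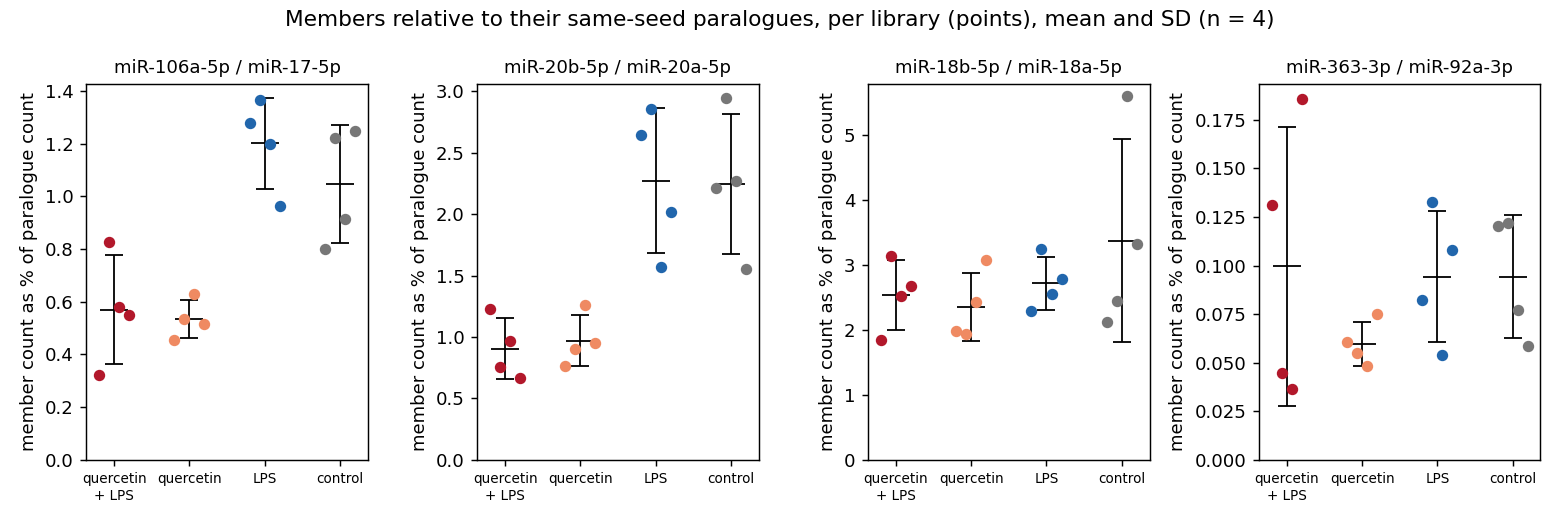
Count of a member as a percentage of the count of its same-seed relative in the same library (y axis, starting at 0), with 1 point per library and the mean and SD of n = 4, for quercetin plus LPS, quercetin, LPS and control libraries. miR-106a-5p to miR-17-5p is at most 0.828% in the quercetin groups with LPS and 0.630% without, against at least 0.965% in LPS and 0.800% in control libraries, while the groups of miR-18b-5p to miR-18a-5p and of miR-363-3p to miR-92a-3p overlap.

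As a share of all counts with the same seed, the members were minor in every group. Of the 6 names with the seed AAAGUGC, miR-106a-5p gave 0.0612% to 0.0756% in quercetin and 0.134% to 0.185% in control libraries, and 0.0665% to 0.115% in quercetin plus LPS and 0.161% to 0.201% in LPS libraries. The shares of miR-20b-5p were 0.0551% to 0.0819% in quercetin and 0.143% to 0.274% in control libraries, and 0.0685% to 0.133% in quercetin plus LPS and 0.133% to 0.246% in LPS libraries. The family as a whole summed to 2903 to 3603 CPM in quercetin and 2937 to 3634 CPM in control libraries, nearly the same range, and to 2114 to 3051 CPM in quercetin plus LPS and 3025 to 3393 CPM in LPS libraries. miR-18b-5p was the largest of the members in its family, at 1.81% to 5.31% of the counts with the seed AAGGUGC. miR-363-3p gave 0.0310% to 0.128% of those with the seed AUUGCAC, where miR-92a-3p alone averaged 29229 CPM in quercetin and 27208 CPM in control libraries.

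miR-363-3p stands on 2 rows of the deposited table, and the values above are their sums. The first row had 292, 96, 80 and 153 counts in quercetin plus LPS libraries, 3, 2, 2 and 3 in quercetin, 314, 369, 222 and 208 in LPS and 367, 356, 161 and 195 in control libraries. The second row had 168, 122, 148 and 144 counts in the quercetin libraries and 0 in the other 12. So 98.3% of the quercetin counts stood on a row that no other group used, while the sums, 124 to 171 counts in quercetin, lay within the 80 to 369 of the other groups. Taken alone, the first row would give a log2 fold change of -6.40 for quercetin against control, in place of -0.57 for the sum. The arm ratio of the hairpin, miR-363-3p to miR-363-5p, ran from 13.3 to 96.0 in quercetin plus LPS, 17.7 to 85.5 in quercetin, 11.2 to 41.0 in LPS and 16.1 to 73.4 in control libraries and overlapped in all 4 comparisons.

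**Figure D5:**
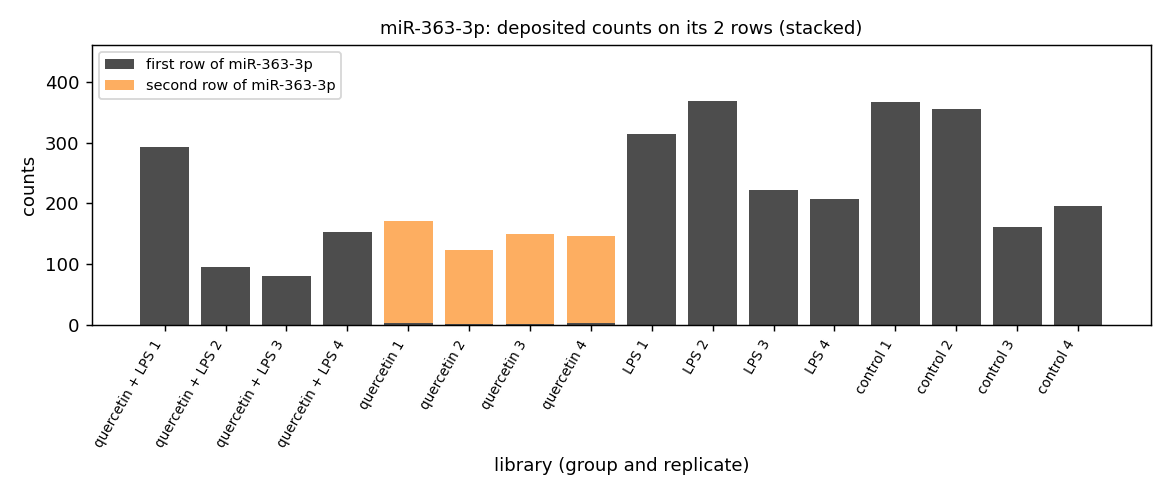
Counts of miR-363-3p (y axis) on its 2 rows of the table, stacked, in each of the 16 libraries. The second row, between 122 and 168 counts, is filled in the 4 quercetin libraries and at 0 in the other 12.

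The profiles most like each member were found by the root mean square difference of centred log2 CPM over the 16 libraries, among 567 other tested miRNAs. For miR-106a-5p these were miR-5099 (0.295), miR-146b-3p (0.359) and miR-20b-5p of the same cluster (0.359), beside a median of 0.790 over all. The hairpin of miR-18b-5p lies between those of miR-106a-5p and miR-20b-5p, and miR-18b-5p ranked 70th for miR-106a-5p (0.561). For miR-20b-5p they were miR-5099 (0.278), miR-34c-3p (0.300) and miR-466g (0.329), with miR-106a-5p the 4th. miR-18b-5p was most like miR-29c-3p (0.258), miR-152-5p (0.319) and miR-466c-5p (0.321). miR-363-3p was most like miR-16-5p (0.161), miR-3109-3p (0.204) and miR-26a-5p (0.228), and miR-363-5p most like miR-877-3p (0.451), miR-130b-5p (0.483) and miR-6418-3p (0.499). Other than miR-106a-5p and miR-20b-5p, no member was among the 10 closest profiles of another member. miR-20b-5p was the 12th closest to miR-363-5p. The 5 arms come from 4 hairpins within 875 bases. Counting error also adds to this measure, at 1 to 28 counts a library for miR-363-5p and 10 to 43 for miR-18b-5p. Its part was not tested.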

How the data were processed

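Per the labels' protocols, RNA was extracted with a miRNeasy kit and TruSeq small RNA libraries were made from it. The authors deposited a table of raw counts per mature miRNA for 16 libraries. Per the submitters' processing notes they used cutadapt and mm9; versions, aligner and counting rule are not given in the sources used here. Of 1381 rows, 1 that holds text and 4 that look exchanged between neighbours with quercetin (miR-6993-3p, miR-1839-5p, miR-700-3p and miR-654-3p) were left out, and 4 names on 2 rows were summed, which left 1372 names.

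Totals ran from 6459654 to 13949915 counts, and no libraries of a group were near duplicates (smallest chi-square per degree of freedom 205.3). The count test was the quasi-likelihood one of edgeR 4.0.16 (R 4.3.3), fitted over the 16 libraries after filterByExpr with a minimum count of 10 (568 miRNAs kept, all 5 members) and TMM, with Benjamini-Hochberg adjustment per comparison at 0.05. The SE is the log2 fold change over the square root of F, and 95% intervals are 1.96 SE. Alternatives used DESeq2 1.42.0, limma 3.58.1, other scalings, filters and libraries. Ratios were log2 of (count + 0.5) over (count + 0.5), with exact permutation tests (scipy 1.17.1). The fit was tested on simulated data for quercetin against control with 556 miRNAs: it called 80.9% of those made 4-fold lower (fold 0.25), 52% of those at fold 0.5 and 0.557% of those unchanged.

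The series design names 4 mice and titles carry the mouse number, so equal numbers were taken as the same animal. Deviations from group means correlated at a mean r of 0.14 over 24 pairs of libraries from the same mouse (-0.47 to 0.65) and -0.04 over 72 pairs from different mice. Controls 3 and 4 went against their numbers: control 3 correlated at a mean r of -0.27 with the other libraries of mouse 3 and 0.57 with those of mouse 4, and control 4 at -0.21 with those of mouse 4 and 0.31 with those of mouse 3. The labels were kept. With these controls exchanged, none of the members' counts of mice printed above against control changed. Among those not printed, miR-18b-5p went from 3 to 4 mice lower in quercetin against control. miR-363-3p went from 3 to 2 mice lower in LPS against control. The main fit has no block. The p-values measure the spread between these samples.

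The members, lists and tests were chosen with earlier results of these data known. Named miRNAs were the 5 members, the listed paralogues that passed or served in ratios, the miRNAs with a member's seed, and the 3 profiles nearest to each member. miR-20a-3p and miR-19a-3p were named after their values were seen. Sequences and hairpin positions are from RefSeq on GRCm38.p6, where 1160 of 1377 names and 4 of 5 members matched.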

Additional observations from a re-analysis of the deposited data

Results flagged for a closer look

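miR-18b-5p had 2.40 CPM in quercetin replicate 4, far from the 1.15, 1.23 and 1.25 CPM of the other 3 quercetin libraries: the gap to the nearest was 0.922 of the group's range, above Dixon's 95% critical value for 4 samples. It was the only such value among 40 groups of 4 libraries examined, and chance gives about 1 in 20 groups. Without that library, miR-18b-5p stood at -1.12 in quercetin against control, with an adjusted p of 0.0543 in edgeR, against -0.84 and 0.120 with it; with the TMM reference library kept as well, it stood at -1.16 and 0.0543. The same library was 1 of the 4 that stood apart on the second principal component.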

How the results depend on the processing

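miR-106a-5p and miR-20b-5p were lower and passed in both quercetin comparisons, and were the 2 members called, under every alternative run: DESeq2, limma-voom, 3 other scalings, no filter on low counts, the mouse as a block, only the 2 groups compared, the exchanged rows as deposited, each of the 16 libraries left out, and 3 alternatives chosen after seeing the data (each library but the TMM reference left out with that reference kept, without quercetin plus LPS 4, quercetin 4, LPS 4 and control 3 together, and the block with controls 3 and 4 exchanged). Their highest adjusted p was 0.0273 and 0.0286 in quercetin against control and 0.0195 and 0.0298 in quercetin plus LPS against LPS. With the replicate block, miR-106a-5p stood at -1.19 and -1.40 and miR-20b-5p at -1.38 and -1.36, and the block changed no call of a member. Over the alternatives the median of all miRNAs lay between -0.08 and 0.15 in quercetin against control and between -0.18 and 0.15 in quercetin plus LPS against LPS. Relative to it, miR-106a-5p ranged from -1.26 to -1.07 and from -1.38 to -1.15, and miR-20b-5p from -1.47 to -1.18 and from -1.38 to -1.10.

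Calls over all miRNAs moved more. In quercetin against control, 51 lower became 29 with upper quartile scaling, and 39 higher and 51 lower became 20 and 25 without the 4 libraries. In quercetin plus LPS against LPS, 49 higher became 81 with DESeq2 and 75 with library size scaling, and 81 lower became 50 with library size scaling and 34 with only the 2 groups. Leaving out a library also changed the TMM reference library: 0 of the 16 fits kept that of the full data, so these moves cannot be put down to the library alone. These fits gave 26 to 48 higher and 27 to 51 lower in quercetin against control and 44 to 81 higher and 36 to 77 lower in quercetin plus LPS against LPS (78 higher without quercetin 1, the reference itself). With the reference kept (15 fits), quercetin against control gave 23 to 46 higher and 29 to 53 lower, with 25, 25 and 23 higher without quercetin 3, quercetin 4 and control 2, and 29, 32 and 30 lower without quercetin 2, quercetin 4 and control 2. Quercetin plus LPS against LPS then gave 28 to 56 higher and 51 to 89 lower, with 32 and 28 higher without quercetin plus LPS 2 and LPS 1, and 51 lower without LPS 2. In LPS against control, 3 higher became 5 (DESeq2), 1 (library size) and 0 (without the 4 libraries). Leaving out a library gave 0 to 4, and 1 to 4 with the reference kept (1 without control 2). For quercetin plus LPS against quercetin, 2 higher became 4 with DESeq2, 2 to 7 with a library left out and 2 to 3 with the reference kept.

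Among values that did not pass, leaving out a library (with either reference, here and below) moved miR-18b-5p between -1.16 and -0.67, miR-363-3p between -0.76 and -0.35 and miR-363-5p between -1.27 and -0.75 in quercetin against control, and the last 2 between -0.85 and -0.12 and between -1.65 and -0.81 in quercetin plus LPS against LPS. Sign changes fell on values that did not pass, apart from the separate rows of miR-363-3p; the cause was not tested. In LPS against control, miR-20b-5p stood at -0.0291 (DESeq2), -0.0283 (RLE), -0.0363 (upper quartile), -0.15 (library size), -0.0751 (no filter), -0.0878 (2 groups) and -0.0034 (without the 4 libraries), and at -0.20 to 0.14 with a library left out. miR-363-3p stood at -0.0037, -0.0035, -0.0352, -0.14, -0.0521, -0.0595 and -0.0432 in the settings DESeq2, RLE, upper quartile, library size, no filter, 2 groups and without the 4 libraries, and at -0.23 to 0.25 with a library left out. In quercetin plus LPS against quercetin, miR-106a-5p stood at 0.0444 (DESeq2), 0.05005 (RLE), 0.0267 (no filter) and 0.0864 (2 groups), miR-363-3p at -0.0368 (limma-voom) and -0.0059 (exchanged block), miR-363-5p at -0.0374 (limma-voom), with -0.12 to 0.21, -0.25 to 0.40 and -0.15 to 0.61 with a library left out, and miR-20b-5p at -0.0451 to 0.25. miR-18b-5p in quercetin plus LPS against LPS stood at 0.04997 (upper quartile) and 0.0626 (library size), and at -0.32 to 0.13 with a library left out. The interaction of miR-363-3p stood at -0.0771 (limma-voom), -0.0261 (block) and -0.0426 (exchanged block), and with a library left out at -0.28 to 0.44; that of miR-106a-5p at -0.29 to 0.0994, of miR-20b-5p at -0.12 to 0.33 and of miR-363-5p at -0.66 to 0.13. The second row of miR-363-3p alone gave 10.34 for quercetin against control and -10.34 for quercetin plus LPS against quercetin, fits against libraries at 0 that give no bound, and the first row alone -6.40 and 5.90, and 5.88 for the interaction. The second row could not be fitted where both groups were at 0, nor miR-363-5p without LPS 1, LPS 3 or control 2, where it missed the filter.

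Among ratios, with a library left out, miR-106a-5p to miR-17-5p in quercetin plus LPS against quercetin ranged from -0.17 to 0.28. miR-18b-5p to miR-18a-5p ranged from -0.20 to 0.0499 in quercetin plus LPS against LPS, -0.41 to 0.0612 in LPS against control and -0.0057 to 0.24 in quercetin plus LPS against quercetin. miR-20b-5p to miR-20a-5p ranged from -0.15 to 0.18 in LPS against control and -0.27 to 0.0157 in quercetin plus LPS against quercetin. miR-363-3p to miR-92a-3p ranged from -0.57 to 0.21 in quercetin plus LPS against LPS and -0.22 to 0.23 in LPS against control. miR-363-3p to miR-363-5p ranged from -0.0058 to 0.79 in quercetin against control and -0.35 to 0.46 in quercetin plus LPS against quercetin, where a pseudocount of 0.1 gave 0.0318. The lowest counts were those of miR-363-5p and miR-18b-5p, at 1 to 28 and 10 to 43 a library; the part of depth in their results was not tested.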
